A study of Mus musculus with 15 samples.

Results

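The outer medulla (OM) of the mouse kidney was compared with the cortex by bulk RNA sequencing of microdissected tissue. The comparison takes every library whose label gives one of these zones, 5 of cortex and 5 of OM, which is 10 of the 15 libraries of the series. The other 5 come from inner medulla (IM) and were used for the shared estimate of spread and as a reference level. All mice were wild type, of a strain labelled C56BL/6N, with no treatment named and neither sex nor age given, and zone was the one factor that differed between groups. Whether the 5 libraries of a zone are from different animals is not labelled, and the p-values therefore rest on variation among libraries that could be partly technical. Levels are in TPM, a transcript share that is corrected for gene length and has the same total in each library, and are given as mean ± SD with n = 5 per zone. Differences are OM minus cortex on the log2(TPM + 1) scale with their standard error (SE), and this scale makes changes of low genes look smaller than they are. Between 18528913 and 22911368 reads per library were assigned to genes, as recovered from the steps of the TPM values.

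The nephron is laid out by zone. The cortex holds the glomeruli, the convoluted proximal tubule, which reabsorbs most of the filtered glucose, amino acids, phosphate and bicarbonate, and the distal convoluted and connecting tubules. The OM holds the straight end of the proximal tubule in its outer stripe, the thick ascending limb, which takes up salt without water, the first thin limbs, collecting ducts and the vessel bundles that supply the papilla. Each piece of tissue is a mixture of these cells.

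Marker lists of the tubule segments differed between the zones, some of them in 1 direction and some in both. All 8 convoluted proximal tubule markers and all 8 distal convoluted and connecting tubule markers fell in OM, and 7 of 8 thin limb markers and 7 of 9 tested thick ascending limb markers rose. Of the 8 straight proximal tubule markers 4 rose and 1 fell (2 rose without cortex library 1 and OM library 1), of 8 principal cell markers 4 rose and 1 fell, and of 8 intercalated cell markers 2 rose and 6 fell. All 8 urothelial and papillary surface markers rose. Slc12a1, the furosemide-sensitive salt carrier of the thick ascending limb, stood at 139.6, 141, 198, 152 and 155 TPM in cortex libraries 1 to 5 and at 626, 924, 1069, 875 and 1038 TPM in OM libraries 1 to 5. The groups lay far apart, with OM library 1 the lowest of OM. In bulk tissue, fewer cells of a type and less RNA per cell cannot be told apart. Podocyte markers, which define glomeruli, did not set cortex apart: their summed level was 129 to 166 TPM in cortex and 159 to 196 TPM in OM, and 1 of 10 was called, Tcf21, a factor also present in interstitial cells, which rose. The sums include Tcf21, at 16.3 ± 1.45 TPM in cortex and 45.7 ± 4.29 TPM in OM, and so cannot be read as more podocyte RNA in OM. Without cortex library 2 limma called 3 of the 10 higher on the TPM scale. Markers of vessels and connective tissue were higher in OM: 7 of 8 endothelial genes and 7 of 8 fibroblast genes rose, with summed levels of 188 to 217 against 331 to 408 TPM and of 40.1 to 45.9 against 84.5 to 124 TPM. Their part in the differences below was not tested.

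**Figure D1:**
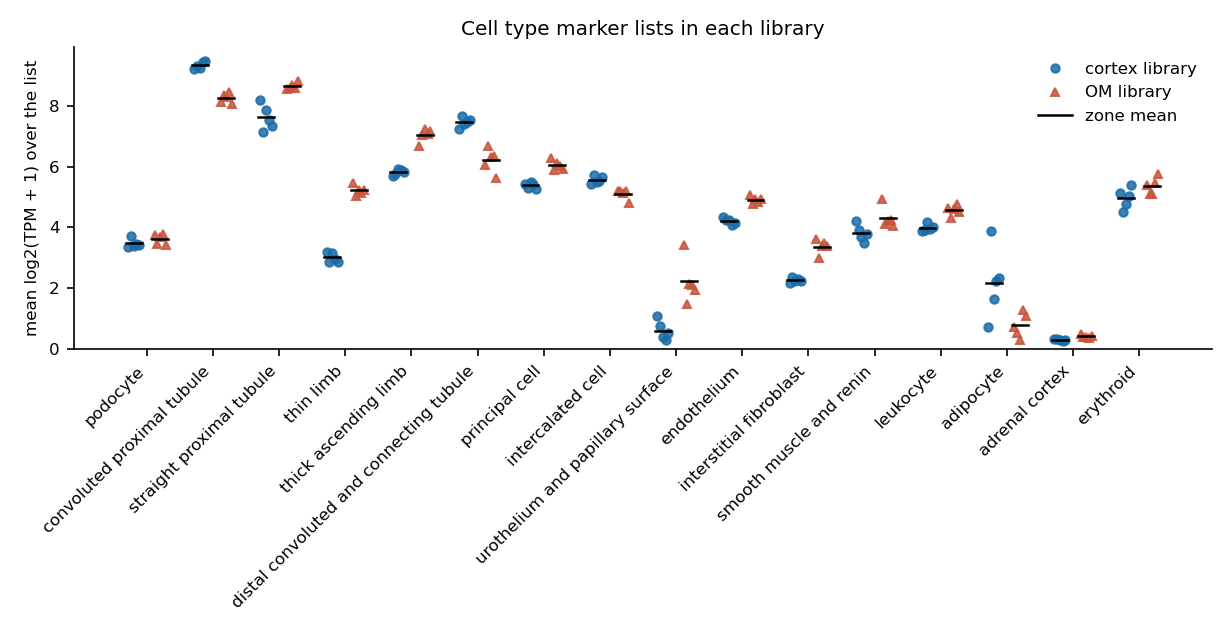
Mean log2(TPM + 1) over each of 16 marker lists in the 5 cortex (circles) and 5 OM (triangles) libraries, with the zone mean as a bar. Cortex and OM libraries do not overlap for the tubule lists from convoluted proximal tubule to intercalated cell, while the podocyte list overlaps, cortex libraries spread over the straight proximal tubule and adipocyte lists, and OM library 1 stands above the others on the urothelial list.

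Libraries of a zone were not equal. Cortex library 1 had the highest level of straight proximal tubule markers among the cortex libraries (8.19 as mean log2(TPM + 1), against 7.14 to 7.87 in the others and 8.56 to 8.82 in OM). It was also the highest cortex library in 196 of the 410 genes at least 2-fold higher in OM, and the lowest in 36 of the 72 genes at least 2-fold lower. OM library 1 had the most transcripts of urothelium and papillary surface, with 95.3 TPM summed over 8 genes against 15.8 to 30.0 TPM in the other OM libraries and 2.23 to 10.3 TPM in cortex. Cortex library 2 carried the most adipocyte transcripts (155 TPM summed against 5.67 to 49.4 TPM in the other cortex libraries). How these differences between libraries arose was not tested.

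More genes were called higher than lower in OM on the TPM scale, and slightly fewer after scaling. Of the 15052 genes that reached 1 TPM in 5 or more libraries, limma called 4267 higher (28.3%) and 949 lower (6.3%) in OM on the TPM scale at an adjusted p under 0.05. After median-ratio scaling, which centres the typical gene, the counts were 2445 higher (16.2%) and 2675 lower (17.8%), and the median difference over all tested genes went from 0.114 to -0.026. A gene is therefore said below to have risen or fallen only where both scales called it in the same direction, which held for 2437 rises (16.2%) and 949 falls (6.3%). By at least 2-fold on both scales, 410 genes rose (2.72%) and 72 fell (0.478%). The 5 OM libraries lay wholly outside the cortex range for 387 of these 410 genes and 64 of these 72. Among all 15052 genes they lay wholly above it for 3520 and wholly below for 797. Genes chosen for a called 2-fold difference tend to separate, so the first counts are a description only. The IM mean was above the OM mean for 286 of the 410 and below the cortex mean for 70 of the 72. The same IM counts over all genes were not computed.

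The 20 largest rises were taken from genes with a mean of 20 TPM or more and no overlap between cortex and OM libraries. They included a set whose level varied between cortex libraries. It holds Cyp7b1, an oxysterol hydroxylase listed as a marker of the straight proximal tubule, the alpha-1 antitrypsin genes Serpina1a, Serpina1b, Serpina1d and Serpina1f, the methyltransferase-like Mettl7a2 with its neighbours Methig1 and Higd1c, Akr1c18, a steroid reductase, Ceacam2 and Rhox6. Cyp7b1 stood at 212, 16.4, 89.7, 47.01 and 26.1 TPM in cortex libraries 1 to 5 and at 591, 467, 474, 403 and 603 TPM in OM, 6.49-fold higher by mean (log2 3.23, SE 0.57, adjusted p = 0.00061). The cortex values ran over a wide range with library 1 the highest. That this value lay below every OM library was a condition of the selection. Serpina1d followed the same order of cortex libraries, at 117, 10.6, 48.6, 31.3 and 13.9 TPM in cortex and 373, 311, 259, 235 and 390.2 TPM in OM (difference of 3.27 in log2, SE 0.58, adjusted p = 0.000621). Cortex library 1 was the highest cortex library in 13 of the 20 genes and library 3 in the other 7. Without cortex library 1 the differences were 3.73 for Cyp7b1 and 3.75 for Serpina1d. Serpina1 genes are near-identical copies and the neighbours Mettl7a2, Methig1 and Higd1c may share reads, so how the reads were split among them is uncertain.

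The other large rises were of different function. Slc14a2, the urea transporter of thin limb and collecting duct, rose most of the 20, from 0.133 ± 0.165 to 39.8 ± 8.05 TPM (log2 5.16, SE 0.13), and stood at 257 ± 19.5 TPM in IM. Ppp1r1b, which encodes the phosphatase inhibitor DARPP-32 that acts downstream of dopamine and cAMP, was at 18.3, 14.4, 22.3, 14.9 and 13.9 TPM in cortex and 119, 132, 157, 127 and 176 TPM in OM (difference of 3.02 in log2, SE 0.20, adjusted p = 1.31e-07). Kcnt1, a sodium-activated potassium channel, was at 2.87, 1.32, 1.91, 1.26 and 1.14 TPM in cortex and 35.8, 23.6, 24.2, 22.1 and 24.02 TPM in OM (difference of 3.33 in log2, SE 0.24, adjusted p = 2.32e-07). Both genes were higher in each OM library than in each cortex library, with OM library 1 the highest for Kcnt1 and the lowest for Ppp1r1b. Also among these 20 were Pcsk6, a proprotein convertase (3.797 ± 0.805 to 36.8 ± 10.2 TPM), Egfl6, a secreted matrix protein (3.19 ± 1.05 to 29.5 ± 6.06 TPM), Nccrp1 (5.84 ± 3.82 to 155 ± 27.01 TPM), Lypd2 (0.493 ± 0.514 to 25.9 ± 10.5 TPM), and Cck, the peptide hormone cholecystokinin (0.464 ± 0.408 to 22.5 ± 7.997 TPM). Lypd2 and Cck had their top OM value in library 1. For 9 of the 20 the IM mean was higher still.

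The falls were smaller in size. Among the 20 largest, taken under the same conditions as the rises, none passed -1.78 on the log2 scale. This was the value of the carboxylesterase Ces1g (36.1 ± 11.9 to 9.55 ± 2.39 TPM). S100g, which encodes the calcium-binding protein calbindin-D9k, was at 2644, 3140, 2366, 2252 and 2816 TPM in cortex and 1162, 1328, 971, 924 and 591 TPM in OM (difference of -1.45 in log2, SE 0.21, adjusted p = 0.00014). As the selection required, no OM library reached the cortex range, and OM library 5 was lowest. Other falls were Pvalb, a calcium buffer of the distal convoluted tubule (90.5 ± 19.02 to 27.5 ± 11.3 TPM), Klk1, tissue kallikrein (4846 ± 484 to 2077 ± 456 TPM), Slc5a12, a lactate cotransporter (156 ± 15.7 to 60.3 ± 8.19 TPM), Npl, a sialic acid lyase (34.1 ± 3.56 to 14.3 ± 1.88 TPM), and Tmem52b (184 ± 30.9 to 84.8 ± 25.5 TPM). Klk1b5, a near copy of Klk1, also fell, and reads of the pair may have been shared. OM library 5 was the lowest OM library in 15 of these 20 genes, and the IM mean was below the OM mean in 19 of them.

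**Figure D2:**
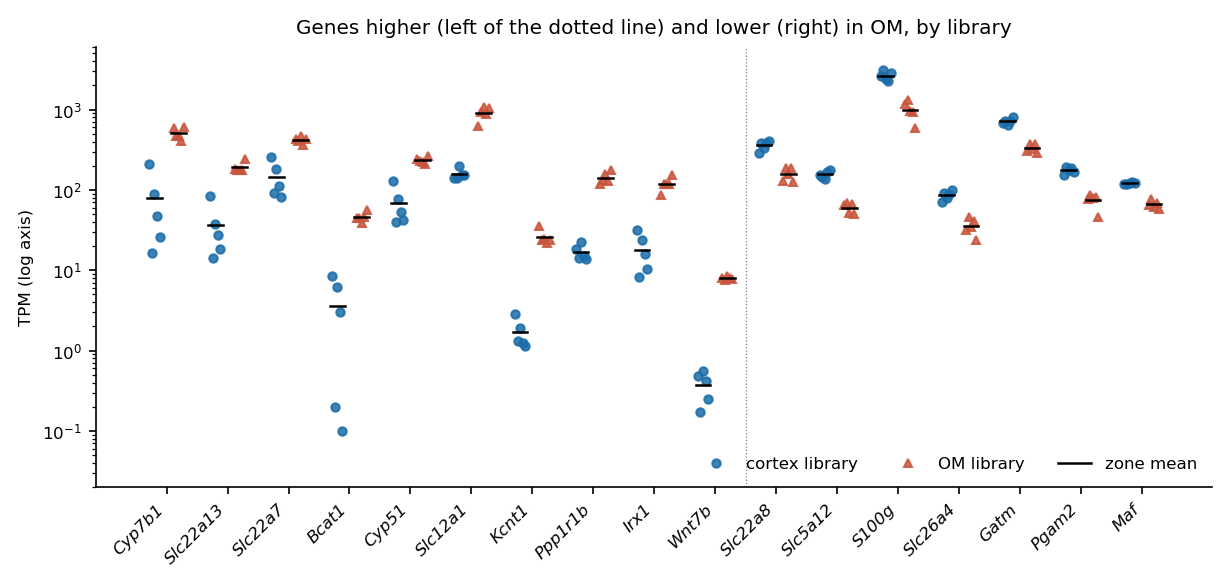
TPM on a log axis of 17 genes in each of the 5 cortex (circles) and 5 OM (triangles) libraries, with zone means as bars. The zones do not overlap for any of the 17, some of which were selected for this. Cortex values of Cyp7b1, Slc22a13 and Bcat1 spread widely between libraries while their OM values stay close. The falls on the right are smaller than most rises on the left.

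Transporters of organic solutes moved in both directions within single families. Of 25 tested amino acid and peptide transporters 6 rose and 8 fell (background 16.2% and 6.3%), and of 33 organic anion, cation and drug transporters 8 rose and 7 fell. Their median log2 differences were 0.45 and -0.11, against 0.114 over all tested genes. Slc22a8 and Slc22a6, the organic anion transporters OAT3 and OAT1 of the convoluted tubule, fell, the former from 288, 386, 329, 386 and 404 TPM in cortex to 131, 188, 158, 189 and 126 TPM in OM (difference of -1.18 in log2, SE 0.18, adjusted p = 0.000175). Slc22a7, which encodes OAT2, rose, from 257, 90.8, 184, 111 and 81.5 TPM to 426, 406, 472, 359 and 426 TPM (log2 1.66, SE 0.37, adjusted p = 0.00311). Every OM library was above every cortex library for Slc22a7 and below for Slc22a8. The same family gave larger rises in Slc22a13, a urate and nicotinate transporter (84.1, 14.3, 38.04, 27.5 and 18.6 TPM in cortex, 182, 178, 176, 178 and 240 TPM in OM, difference of 2.62 in log2), and Slc22a19 (36.95 ± 32.8 to 201 ± 37.7 TPM). Cortex library 1 was again the highest of cortex. Slco4c1, a transporter of thyroid hormone and digoxin, rose too (3.56 ± 2.98 to 24.4 ± 7.51 TPM).

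Among amino acid carriers, the sodium-coupled neutral transporter Slc6a19 fell from 269 ± 34.2 to 116 ± 12.7 TPM (log2 -1.20, SE 0.12, adjusted p = 2.34e-06). Slc7a7 and Slc7a8, light chains that release amino acids on the blood side, fell with it (150.1 ± 19.4 to 74.2 ± 10.1 and 85.4 ± 9.82 to 45.8 ± 7.42 TPM). In the other direction, Slc38a3, the glutamine transporter SNAT3, was 33.4, 13.6, 13.3, 11.1 and 7.37 TPM in cortex and 57.5, 61.3, 52.1, 45.6 and 57.4 TPM in OM (difference of 1.90 in log2, SE 0.36, adjusted p = 0.00108). Cortex library 1 was more than 2-fold above the other cortex libraries and below all of OM. Slc15a2, the high-affinity peptide transporter PEPT2, rose from 28.8 ± 7.68 to 72.6 ± 5.85 TPM. The most abundant member, Slc7a13, a partner of the cystine transporter subunit Slc3a1, was 840.5 ± 163 and 1324 ± 135 TPM without passing (adjusted p = 0.0624). Its libraries did not overlap, and the call was made when cortex library 1 was left out (log2 0.77). It was also made in the fit of the 10 cortex and OM libraries alone.

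Of 27 carriers of sugars, carboxylates, nucleosides and vitamins 5 rose and 8 fell (list median 0.072), against 16.2% and 6.3% of all genes. Slc5a12 fell from 154, 145, 137, 166 and 176 TPM in cortex to 64.2, 68.1, 52.1, 66.2 and 50.8 TPM in OM (difference of -1.36 in log2, SE 0.14, adjusted p = 4.78e-06), with no overlap between zones. Slc13a3, the dicarboxylate transporter NaDC3, fell less (447 ± 55.3 to 283 ± 58.1 TPM). The vitamin C transporter Slc23a1 rose from 124 ± 32.2 to 277 ± 30.3 TPM, and its relative Slc23a3 from 9.64 ± 5.12 to 31.3 ± 3.47 TPM (log2 1.70, SE 0.31). None of 18 phosphate, calcium and magnesium genes rose and 10 fell (list median -0.34), and without cortex library 1 and OM library 1 together 2 rose. They include Slc34a1, the main renal phosphate cotransporter (5175 ± 427 to 2826 ± 424 TPM), Trpv5, the apical calcium channel of the distal nephron (14.3 ± 1.45 to 6.02 ± 1.599 TPM), and Calb1, calbindin-D28k (357 ± 36.9 to 158 ± 47.5 TPM). Limma called 2 further members higher on the TPM scale and not after scaling.

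Most of the acid and base list fell, as did most of the phosphate, calcium and magnesium list. Of 31 tested genes 18 fell and 6 rose, where 6.3% and 16.2% of all genes did, and the median log2 difference of the list was -0.47. Slc26a4, pendrin, the chloride-bicarbonate exchanger of type B intercalated cells, was 71.6, 90.4, 80.03, 88.1 and 98.9 TPM in cortex and 32.1, 45.7, 34.9, 41.1 and 23.8 TPM in OM (difference of -1.27 in log2, SE 0.15, adjusted p = 1.92e-05). Slc4a9, the basolateral carrier of the same cells, fell from 99.95 ± 5.81 to 46.02 ± 9.93 TPM, and Atp6v1g3, a proton pump subunit of intercalated cells, from 91.7 ± 8.47 to 44.3 ± 7.82 TPM. Carbonic anhydrases Car2 (367 ± 46.2 to 245 ± 35.7 TPM) and Car4 (302 ± 14.4 to 221 ± 27.2 TPM) fell as well. Most of the 8 intercalated cell markers given above, among them Slc26a4, Slc4a9, Atp6v1g3 and Slc4a1, are also members of this list. Their 6 falls are therefore not a separate observation, and the part of intercalated cells in these falls was not tested. The rises were of other members. Slc4a1, the band 3 exchanger of type A intercalated cells, rose from 15.8 ± 1.95 to 27.6 ± 1.53 TPM. Slc4a11, a carrier linked to water, proton and ammonia flux, rose from 1.46 ± 0.359 to 15.6 ± 2.83 TPM and stood at 149.5 ± 33.2 TPM in IM. Slc9a8, the sodium-proton exchanger NHE8, rose from 79.8 ± 31.6 to 249.9 ± 35.9 TPM.

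Salt transport genes moved in both directions. Of 32 genes of the sodium pump, potassium channels and chloride transport 9 rose and 7 fell (list median 0.089). Among all genes 16.2% rose and 6.3% fell. Slc12a3, the thiazide-sensitive cotransporter of the distal convoluted tubule, fell from 583 ± 109 to 287 ± 86.2 TPM (log2 -1.05, SE 0.19, adjusted p = 0.000778), and Kcne1, a potassium channel subunit, from 16.7 ± 2.28 to 7.11 ± 1.505 TPM. Of 26 tight junction and connexin genes 12 rose and none fell (list median 0.45), or 1 fell without cortex library 1 and OM library 1. They include Cldn19 (5.94 ± 0.651 to 27.8 ± 4.25 TPM) and Cldn10 (175 ± 14.2 to 279 ± 16.9 TPM), which take part in cation passage in the thick ascending limb, and Cldn3 (8.23 ± 2.37 to 26.7 ± 6.42 TPM). Cldn2, the cation and water pore of the proximal tubule, was 352 ± 15.4 and 333 ± 24.1 TPM without passing (adjusted p = 0.791).

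Ratios of related genes within a library depend little on the scaling of that library, except where a member is near 0 TPM. For 10 pairs of related genes, the log2 ratio was compared by a two-sided exact permutation test over the 10 libraries. The smallest p of this test is 0.0079, and p-values were adjusted over the 10 pairs. The pairs were chosen with earlier results of these data known. Their p-values therefore describe how the libraries separate and are not independent support. The ratio of Slc12a1 to Slc12a3 went from -1.87 ± 0.33 in cortex to 1.69 ± 0.43 in OM (difference 3.56, exact p = 0.0079, adjusted p = 0.0088), so Slc12a3 was the higher of the pair in each cortex library and Slc12a1 in each OM library. The ratio of Slc5a1, the high-affinity glucose cotransporter SGLT1, to Slc5a2, the low-affinity SGLT2, rose by 1.76, from -4.202 ± 0.216 to -2.44 ± 0.30. That of the glucose carriers Slc2a1 to Slc2a2 rose by 1.74, from -2.12 ± 0.20 to -0.38 ± 0.33, since Slc2a1 rose from 31.8 ± 1.74 to 54.1 ± 7.95 TPM and Slc2a2 fell from 142 ± 18.6 to 71.3 ± 14.5 TPM. The ratio of the glycine carrier Slc6a18 to Slc6a19 rose by 1.88, and that of Slc22a7 to Slc22a6 by 2.57. In each of these the exact p was 0.0079 (adjusted 0.0088) and no OM library fell within the cortex range. Slc5a1 and Slc6a18 were higher in OM by 0.62 and 0.68 on the TPM scale but lost the call after scaling, and Slc6a18 lost it also without cortex library 2, 4 or 5 or OM library 5.

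**Figure D3:**
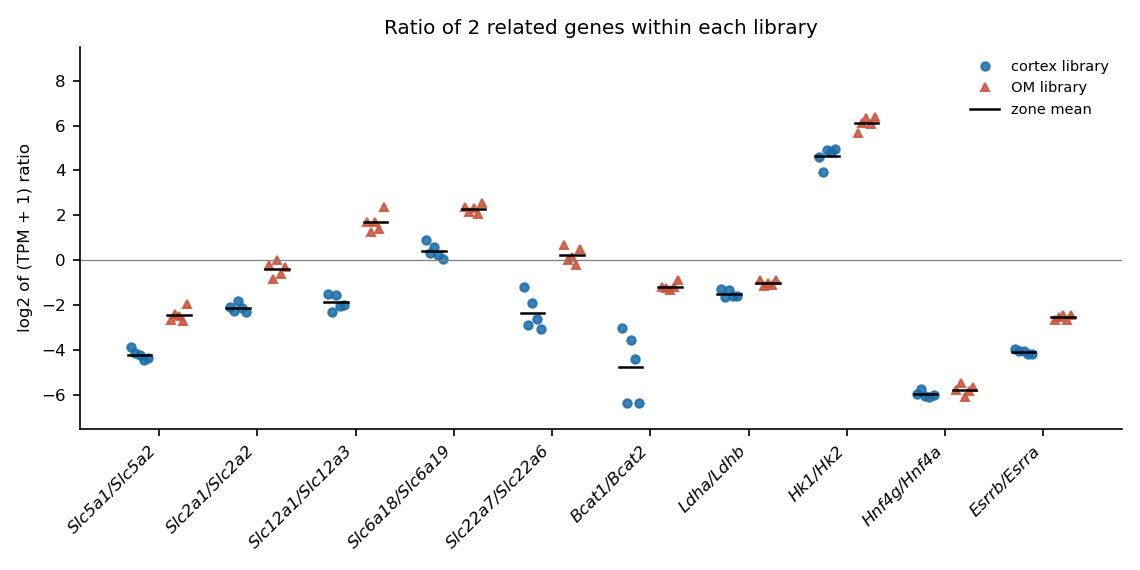
Log2 ratio of (TPM + 1) of the first to the second gene of 10 pairs in each of the 5 cortex (circles) and 5 OM (triangles) libraries, with zone means as bars; 0 marks equal levels. OM libraries lie above cortex libraries in 9 pairs, while Hnf4g/Hnf4a overlaps.

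Pairs of enzymes were compared in the same form, and the sign of each ratio difference depends on which gene was placed first. Bcat1, the cytosolic aminotransferase of leucine, isoleucine and valine, was 8.61, 0.1996, 6.23, 3.06 and 0.0992 TPM in cortex and 44.7, 44.4, 39.2, 45.9 and 57.00 TPM in OM (difference of 3.84 in log2, SE 0.50, adjusted p = 4.57e-05). Cortex libraries 2 and 5 were almost without it and libraries 1 and 3 had the most of the cortex. Bcat2, its mitochondrial counterpart, was 86.2 ± 7.18 and 105 ± 2.905 TPM without passing (adjusted p = 0.0946). It was called in the fit of the 10 cortex and OM libraries alone. The ratio of Bcat1 to Bcat2 rose by 3.56, or by 4.56 with a pseudocount of 0.1 in place of 1. Hk1, a hexokinase of many tissues, rose from 38.2 ± 4.75 to 88.7 ± 15.99 TPM, with Hk2 under 2 TPM in every cortex and OM library. The ratio of the lactate dehydrogenase subunits Ldha to Ldhb rose by the small amount of 0.48, from -1.48 ± 0.16 to -1.001 ± 0.128 (exact p = 0.0079, adjusted p = 0.0088), as Ldhb fell from 2109 ± 119.6 to 1622 ± 91.4 TPM.

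Among enzymes, the lists of amino acid derivatives and of conjugation had falls above the background of 6.3% and rises at or below that of 16.2%. Of 26 genes of serine, glycine, arginine, creatine and glutamate metabolism 10 fell and 4 rose, and of 37 conjugation enzymes 16 fell and 3 rose, with list medians of -0.050 and -0.25. Gatm, which makes the creatine precursor guanidinoacetate, was 672, 713, 644, 718 and 812 TPM in cortex and 306, 371, 326, 371 and 286 TPM in OM (difference of -1.10 in log2, SE 0.16, adjusted p = 0.000109). Ass1 and Asl, which make arginine from citrulline, also fell (Ass1 4512 ± 518 to 2529 ± 248 TPM, Asl 309 ± 30.6 to 175 ± 11.9 TPM). Arg2, the mitochondrial arginase that consumes arginine, rose from 3.69 ± 1.02 to 11.8 ± 3.09 TPM (log2 1.44, SE 0.17, adjusted p = 1.31e-05). Without cortex library 1 and OM library 1, 2 members of this list rose in place of 4 and 9 fell.

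Of 40 amino acid breakdown genes 9 fell and 5 rose (list median 0.025), or 3 rose without cortex library 1 and OM library 1. The background was 6.3% for falls and 16.2% for rises. Gldc, the glycine decarboxylase of the glycine cleavage system, fell from 33.01 ± 6.88 to 13.1 ± 1.26 TPM. Prodh2, the dehydrogenase of hydroxyproline, fell from 94.9 ± 17.1 to 40.9 ± 8.59 TPM (log2 -1.20, SE 0.21, adjusted p = 0.000587). Cdo1, cysteine dioxygenase on the route to taurine, rose from 131 ± 15.8 to 237 ± 22.1 TPM. Among conjugation enzymes, the methyltransferase Inmt fell from 2563 ± 224 to 1515 ± 139 TPM. Gstm1 and Gstm2, glutathione transferases of one gene cluster, rose (462 ± 109 to 930 ± 174 and 65.8 ± 6.68 to 128 ± 33.5 TPM), with reads possibly shared between them. The Ugt1a genes that fell share exons, so their 6 falls are not independent of each other.

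Of 36 glycolysis and gluconeogenesis genes 5 rose and 6 fell (list median 0.028), against 16.2% and 6.3% of all genes. Rises were thus no more frequent in this list than among all genes. Aldoc, an aldolase isoenzyme best known from brain, rose from 3.94 ± 0.668 to 23.9 ± 2.75 TPM (log2 2.34, SE 0.11, adjusted p = 2.04e-09), and Pfkp, the platelet form of phosphofructokinase, from 17.4 ± 1.16 to 40.2 ± 4.63 TPM. Pgam2, the muscle form of phosphoglycerate mutase, was 152, 194, 176, 186 and 169 TPM in cortex and 77.4, 86.3, 80.3, 81.5 and 46.1 TPM in OM (difference of -1.26 in log2, SE 0.14, adjusted p = 8.71e-06). G6pc, glucose-6-phosphatase, the last step of glucose release, fell from 437 ± 105 to 215 ± 58.01 TPM (log2 -1.02, SE 0.19, adjusted p = 0.000889).

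Promoter letters were described for genes called at 2-fold or more. HNF1 factors are homeodomain proteins of the proximal tubule and other nephron segments, and the letters GTTAATNAT, a common form of their motif, were searched on both strands of the 250 bases before each RefSeq start (GRCm38.p6). They stood in 78 of 11270 promoters of tested genes (0.692%), in 6 of 264 promoters of genes that rose (2.27%) and in 4 of 53 promoters of genes that fell (7.55%). The last 4 were G6pc, Prodh2, Habp2 and Sult2a3. The HNF4 letters CAAAGTCCA stood in 0.444% of all promoters, 0.379% of those that rose and 0 of 53 that fell, and the ESRR letters TCAAGGTCA in 0.302%, 0.758% and 0 of 53. A match is a description of the letters and not a binding site. The upstream sequences of G6pc (chr11:101367466-101367715, plus strand), Prodh2 (chr7:30493408-30493657, plus strand) and Slc10a2 (chr8:5105288-5105537, minus strand) are printed with the HNF1 letters in capitals, since the first pair belongs to named falls and the last to a rise. They come from RefSeq and run 5′ to 3′ toward the start of the gene. Counted from the start, the letters begin at base -221 in G6pc, -127 in Prodh2 and -220 in Slc10a2, in reverse in the last pair.
G6pc: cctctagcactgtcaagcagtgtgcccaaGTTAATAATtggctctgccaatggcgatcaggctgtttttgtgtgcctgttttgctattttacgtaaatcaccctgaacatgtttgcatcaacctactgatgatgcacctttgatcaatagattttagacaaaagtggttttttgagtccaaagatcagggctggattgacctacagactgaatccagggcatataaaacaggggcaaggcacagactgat
Prodh2: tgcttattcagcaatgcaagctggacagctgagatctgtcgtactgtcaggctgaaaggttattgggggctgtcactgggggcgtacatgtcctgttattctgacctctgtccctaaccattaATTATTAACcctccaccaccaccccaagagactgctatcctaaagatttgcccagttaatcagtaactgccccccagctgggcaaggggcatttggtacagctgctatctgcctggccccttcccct
Slc10a2: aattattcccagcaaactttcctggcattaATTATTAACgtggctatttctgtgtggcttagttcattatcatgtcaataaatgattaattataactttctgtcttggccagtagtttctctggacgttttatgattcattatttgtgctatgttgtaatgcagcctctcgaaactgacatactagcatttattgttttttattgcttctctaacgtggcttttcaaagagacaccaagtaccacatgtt
Slc10a2, the sodium-coupled bile acid transporter, rose from 20.1 ± 7.85 to 49.9 ± 5.07 TPM.

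Of 34 cytochrome P450 genes 8 rose and 11 fell (list median -0.010). Over all genes 16.2% rose and 6.3% fell. Cyp2e1, which oxidises ethanol and small solvents, fell from 2839 ± 204 to 1339 ± 197 TPM, and Cyp24a1, which degrades vitamin D hormone, from 68.2 ± 27.4 to 27.8 ± 11.99 TPM, with zones that overlapped. Cyp51, the sterol demethylase, was 129.6, 39.7, 77.5, 53.6 and 41.8 TPM in cortex and 242, 230.3, 220.1, 212 and 261 TPM in OM (difference of 1.89 in log2, SE 0.32, adjusted p = 0.000394). Of 22 cholesterol synthesis genes 9 rose and 1 fell (list median 0.30), and the same counts were found without cortex library 1 and OM library 1. Sqle, squalene epoxidase, rose from 40.1 ± 7.16 to 92.9 ± 18.1 TPM. Cortex library 1 was the highest of cortex for Cyp51.

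In the remaining metabolic lists the share that rose was below the 16.2% of all genes. The share that fell lay above 6.3%, but by few genes in each list, and no shared direction is read from it. Of 34 citrate cycle and pyruvate genes 2 rose and 4 fell, of 12 ketone and acetate genes 1 and 1, of 37 fatty acid synthesis and storage genes 3 and 5, and of 22 peroxisome genes 1 and 2. The 5 lipid falls went to 3 on the TPM scale without cortex library 2, 4 or 5 or OM library 5. Mdh1, malate dehydrogenase, was 1429 ± 45.9 and 1370 ± 36.1 TPM without passing (adjusted p = 0.575). Idh1, the cytosolic isocitrate dehydrogenase, fell from 456 ± 63.7 to 245 ± 42.7 TPM. The single peroxisomal rise was Crot, carnitine octanoyltransferase (190.5 ± 66.5 to 520.4 ± 61.4 TPM). Of 30 antioxidant and metal-binding genes 4 rose and 5 fell (list median 0.094). Gpx3, the secreted glutathione peroxidase made by the proximal tubule, fell from 31750 ± 3374 to 16600 ± 1130 TPM (log2 -0.93, SE 0.19, adjusted p = 0.00131). The difference was 0.00 and not called under quantile normalization, where a gene that keeps its rank cannot differ between libraries. Gpx6, a relative of Gpx3, rose from 28.4 ± 4.14 to 127 ± 19.7 TPM (log2 2.12, SE 0.21, adjusted p = 4.95e-06).

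**Figure D4:**
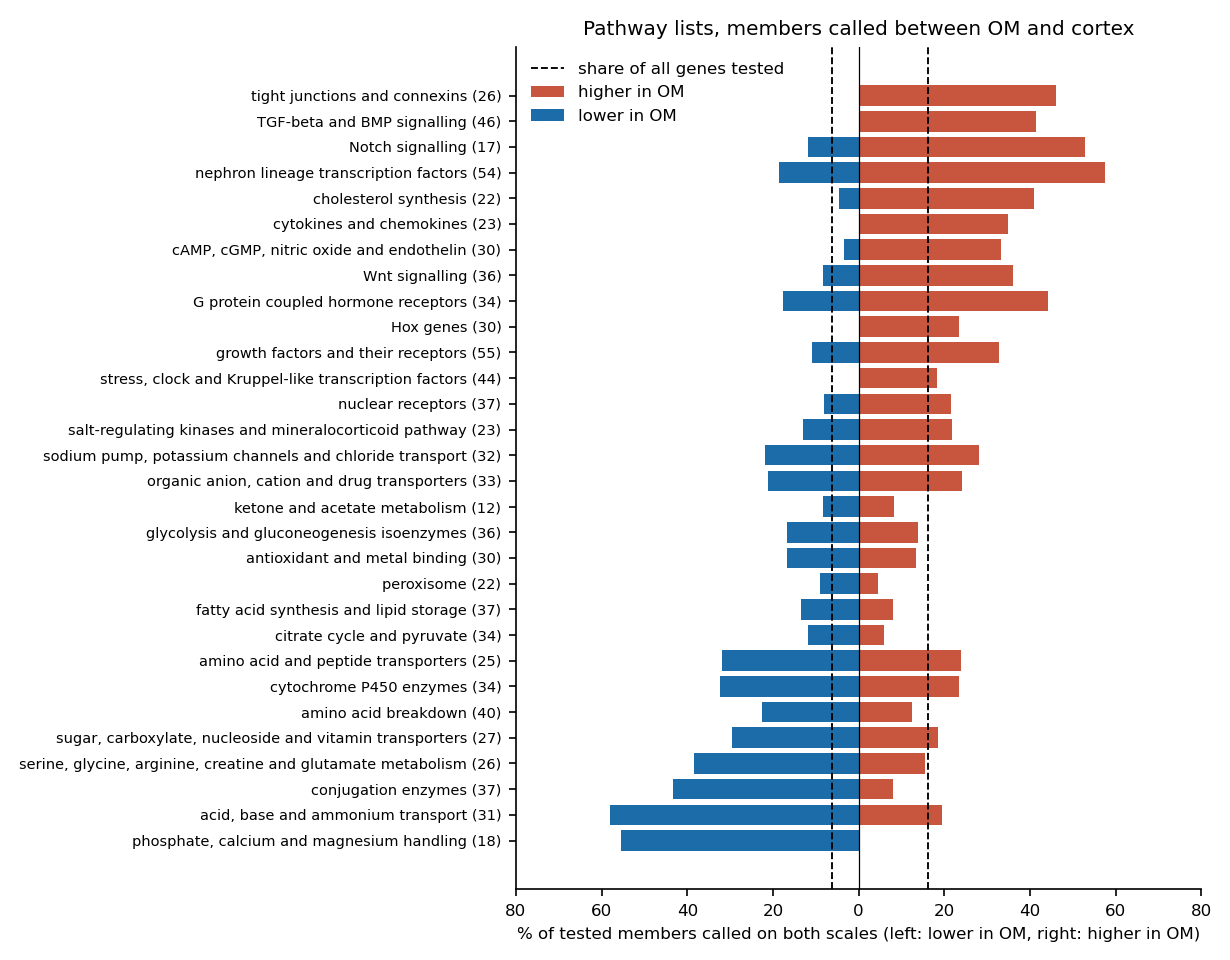
Share of the tested members of each of 30 pathway lists that were called on both scales, higher (right) or lower (left) in OM, with the number tested in brackets and the share of all 15052 genes as dashed lines (16.2% and 6.3%). Phosphate, acid-base and conjugation lists reach farthest left, and nephron lineage factor, Notch, tight junction and receptor lists farthest right.

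The signalling lists are given against 16.2% of all genes that rose and 6.3% that fell. Of 34 G protein coupled hormone receptors 15 rose and 6 fell (list median 0.38). Ptger3, the prostaglandin E2 receptor EP3 that opposes cAMP in the thick ascending limb, was 9.18, 9.68, 12.5, 10.8 and 8.897 TPM in cortex and 35.8, 56.4, 55.4, 48.7 and 66.6 TPM in OM (difference of 2.24 in log2, SE 0.19, adjusted p = 1.33e-06). P2ry2, a receptor for extracellular ATP, rose from 1.66 ± 0.497 to 9.81 ± 1.66 TPM, and Avpr2, the vasopressin V2 receptor, from 14.5 ± 0.299 to 26.8 ± 5.08 TPM. Oxgr1, a receptor for the citrate cycle metabolite oxoglutarate, fell from 17.9 ± 2.76 to 8.45 ± 1.49 TPM. The most abundant receptor of the list, Pth1r for parathyroid hormone, was 449 ± 26.7 and 392 ± 33.99 TPM without passing (adjusted p = 0.438). Pth1r was called in the fit of the 10 cortex and OM libraries alone. Of 30 genes of cAMP, cGMP, nitric oxide and endothelin 10 rose and 1 fell (list median 0.30; no fall without cortex library 1 and OM library 1), led by the anchoring protein Akap12 (2.49 ± 0.297 to 7.29 ± 0.656 TPM) and Edn3, endothelin-3 (2.89 ± 0.314 to 7.402 ± 1.49 TPM).

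Of 36 Wnt genes 13 rose and 3 fell (list median 0.27). Wnt7b, a ligand that the collecting duct needs to elongate in mouse development, was 0.4804, 0.173, 0.558, 0.421 and 0.2504 TPM in cortex and 7.94, 7.63, 8.498, 8.098 and 7.69 TPM in OM (difference of 2.71 in log2, SE 0.14, adjusted p = 4.18e-09), and 129 ± 29.6 TPM in IM. The OM values were within 1 TPM of each other. Wnt5a, a ligand of the beta-catenin-independent branch, rose from 2.09 ± 0.418 to 8.24 ± 1.67 TPM, and Tcf7l1, a nuclear partner of beta-catenin, from 3.21 ± 0.999 to 8.09 ± 0.5697 TPM. The abundant receptor Lgr4, which binds R-spondins, fell slightly (76.4 ± 2.85 to 63.7 ± 6.62 TPM), a call lost without cortex library 1 and OM library 1 (log2 -0.21). Of 46 TGF-beta and BMP genes 19 rose and none fell (list median 0.27), and 4 were called lower after scaling only. The rises included inhibitors of these ligands: Fst, follistatin, which traps activins (0.0967, 0.0297, 0.827, 0.413 and 0.105 TPM in cortex, 12.6, 11.6, 9.23, 12.5 and 9.03 TPM in OM, difference of 3.23 in log2), and Chrdl1, a BMP antagonist (0.826 ± 0.8297 to 6.995 ± 1.09 TPM). Sostdc1, another BMP antagonist, rose from 53.6 ± 5.66 to 104 ± 18.1 TPM, and Id4, a transcriptional inhibitor induced by BMPs, from 8.15 ± 2.71 to 40.2 ± 9.32 TPM.

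Of 55 growth factors and receptors 18 rose and 6 fell (list median 0.21). Angpt2, the ligand that antagonises the endothelial receptor Tek in resting vessels, was 1.06, 0.813, 1.55, 0.901 and 0.903 TPM in cortex and 23.4, 12.8, 18.6, 17.99 and 17.9 TPM in OM (difference of 3.21 in log2, SE 0.13, adjusted p = 3.84e-10). Tek itself rose from 8.75 ± 0.5401 to 19.3 ± 1.66 TPM and Pdgfra, a receptor of fibroblasts, from 4.25 ± 0.194 to 12.4 ± 1.04 TPM. Tek is itself 1 of the endothelial markers and Pdgfra 1 of the fibroblast markers counted above. Igfbp4, an IGF-binding protein, fell from 1191 ± 104 to 621 ± 78.2 TPM and Kl, klotho, the co-receptor for FGF23, from 336 ± 28.98 to 214 ± 42.4 TPM. Without cortex library 5 limma called 3 of these genes lower on the TPM scale in place of 6. Of 17 Notch genes 9 rose and 2 fell (list median 0.44), with Lfng, a glycosyltransferase that tunes Notch receptors, rising from 4.198 ± 0.459 to 10.1 ± 0.725 TPM. Of 23 cytokine and chemokine genes 8 rose and none fell (list median 0.18), and 2 were called lower after scaling only. Among the rises was Cxcl12 (21.4, 21.8, 19.01, 18.1 and 18.5 TPM in cortex, 80.6, 72.2, 68.4, 72.2 and 85.3 TPM in OM, difference of 1.88 in log2, SE 0.09). Of 23 salt-regulating kinase and mineralocorticoid genes 5 rose and 3 fell (list median 0.077). Wnk1, a kinase gene whose transcript forms are not separated here, fell from 76.04 ± 9.12 to 47.2 ± 7.896 TPM, and Ppp1r1a, a phosphatase inhibitor of the thick ascending limb list, rose from 184 ± 12.3 to 408 ± 26.5 TPM.

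Most members of the list named nephron lineage transcription factors rose. Of 54 tested members 31 rose and 10 fell, where 16.2% and 6.3% of all genes did, with a list median of 0.44. The list is not limited to tubule cells. It holds Tcf21, also present in interstitial cells, which rose from 16.3 ± 1.45 to 45.7 ± 4.29 TPM. In which cells the members rose cannot be told from bulk tissue. Irx1, an Iroquois homeodomain factor that patterns the intermediate nephron in frog, was 31.7, 8.21, 23.9, 16.1 and 10.3 TPM in cortex and 85.7, 119, 119, 118 and 152 TPM in OM (difference of 2.79 in log2, SE 0.28, adjusted p = 5.47e-06). Irx2 rose from 4.52 ± 1.46 to 24.6 ± 2.59 TPM. Sim2, a bHLH-PAS factor, rose from 1.66, 1.39, 1.77, 1.403 and 1.64 TPM in cortex to 12.9, 14.8, 15.7, 14.6 and 17.9 TPM in OM (difference of 2.65 in log2, SE 0.09, adjusted p = 6.13e-11). No cortex library reached an OM library for Irx1, Irx2 or Sim2, but the cortex values of Irx1 ranged widely, with library 1 the highest. Foxc1, a forkhead factor, rose from 1.72 ± 0.672 to 11.2 ± 1.65 TPM, Pou3f3, a factor needed for the loop of Henle in mouse, from 34.4 ± 3.31 to 91.6 ± 14.4 TPM, and Pax2, needed for kidney formation, from 17.1 ± 1.704 to 25.2 ± 1.96 TPM.

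The factors that fell included Maf and Foxi1. Maf, a bZIP factor of the proximal tubule, was 119, 119, 122, 125 and 121 TPM in cortex and 64.7, 76.9, 61.2, 69.7 and 57.1 TPM in OM (difference of -0.88 in log2, SE 0.11, adjusted p = 2.18e-05). Hmx2, a homeodomain factor, fell from 16.1 ± 3.42 to 6.24 ± 2.04 TPM, Foxi1, which sets intercalated cell identity, from 25.3 ± 2.78 to 16.7 ± 2.67 TPM, and Tfcp2l1, a factor of collecting duct and distal cells, from 79.8 ± 7.24 to 59.9 ± 7.42 TPM. Without cortex library 1 and OM library 1, 27 of these factors rose and 9 fell.

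**Figure D5:**
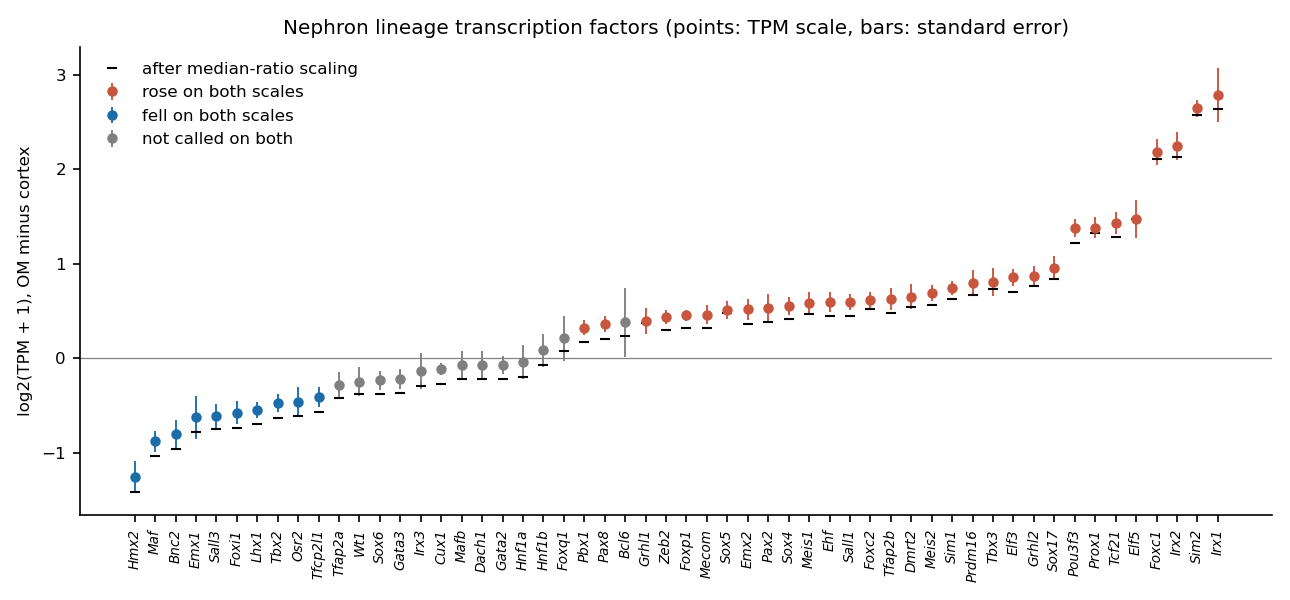
Difference in log2(TPM + 1), OM minus cortex, of the 54 tested nephron lineage transcription factors, with the standard error as bars and the value after median-ratio scaling as a dash. Irx1, Sim2, Irx2 and Foxc1 lie above 2, and Hmx2 and Maf are the lowest.

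Of 37 nuclear receptors 8 rose and 3 fell (list median 0.093). For this list and the 2 below, the shares over all genes were 16.2% and 6.3%. Esrrb, an orphan receptor related to estrogen receptors, was 7.74, 10.04, 9.54, 9.01 and 8.63 TPM in cortex and 16.7, 28.2, 28.9, 22.9 and 26.3 TPM in OM (difference of 1.34 in log2, SE 0.16, adjusted p = 1.48e-05). Its relative Esrra, a regulator of mitochondrial genes, was 169 ± 19.8 and 147 ± 21.9 TPM (adjusted p = 0.165) and was called lower after scaling (log2 -0.36) or without cortex library 1 (log2 -0.28). The ratio of Esrrb to Esrra rose by 1.54, from -4.08 ± 0.11 to -2.54 ± 0.12 (exact p = 0.0079, adjusted p = 0.0088). Hnf4a, which drives proximal tubule genes, was 396 ± 41.2 and 358 ± 46.9 TPM without passing (adjusted p = 0.621), and the ratio of Hnf4g to it moved by 0.19 (exact p = 0.1587). Ppara, a regulator of fatty acid use, fell from 37.5 ± 5.61 to 25.9 ± 4.97 TPM, with zones that overlapped. Of 30 Hox genes 7 rose and none fell (list median 0.23), among them Hoxb9 (11.6 ± 1.16 to 28.9 ± 5.202 TPM), and 2 were called lower after scaling only. Of 44 stress, clock and Kruppel-like factors 8 rose and none fell (list median 0.19), near the background for rises, and 2 were called lower after scaling only. Klf4 was at 3.35 ± 0.617 and 6.55 ± 0.315 TPM (log2 0.81, SE 0.11, adjusted p = 5.14e-05).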

How the data were processed

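Bulk RNA sequencing libraries of microdissected mouse kidney cortex, OM and IM (5 each) were analysed from 1 table of TPM per gene that the authors deposited. Per the submitters' processing notes, STAR was used (its version is not listed) with the mouse build mm9. For the counting tool, annotation and strand the sources used here give nothing, so reads of overlapping, antisense or near-identical genes cannot be told apart. Every TPM column sums to the same total, and 92 spike-in rows are all at 0. The steps of the TPM values gave whole reads (tolerance 0.001) in 100% of the values of 19997 genes. Cortex and OM libraries held 18528913 to 22911368 such reads, so that 1 TPM stood for 25.7 to 32.8 reads in the median gene.

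Of 25030 genes, the 15052 that reached 1 TPM in 5 or more of 15 libraries were kept, log2(TPM + 1) was taken, and limma 3.58.1 (R 4.3.3, statmod 1.5.0) fitted zone over all 15 libraries with trend and robust moderation. Tests were two-sided, adjusted by Benjamini-Hochberg over all 15052 genes and called under 0.05. The fit was repeated after median-ratio scaling. Pairs of genes were compared by their ratio within a library, with an exact permutation test (scipy 1.17.1). The scripts were tested on simulated data. Promoters came from RefSeq (GRCm38.p6), matched by symbol for 11270 of the genes tested; no coordinates of the authors' build are printed. The 30 pathway lists, 16 marker lists, pairs and rules were chosen with earlier results of these data known. Of each pathway list the text names from up to 3 largest rises and 3 largest falls called on both scales at 5 TPM or more, and the 2 most abundant; some of these are not reported here. It adds, over all genes, from the 20 largest rises and 20 largest falls at 20 TPM or more without overlap and without predicted genes, the pairs, the most abundant markers and genes with promoter letters. Asl, Avpr2, Foxc1, Foxi1, Pax2, Pou3f3, Tek and Tfcp2l1 were named outside that rule, after their values were seen. Alternatives were other scalings, pseudocounts and filters, a fit of the 10 libraries alone, voom on recovered reads, a replicate block and libraries left out.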

Additional observations from a re-analysis of the deposited data

Results flagged for a closer look

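In 280 groups of 5 libraries (140 genes named in the text, in cortex and in OM), 20 had 1 library whose gap to the next exceeded Dixon's 95% critical value on the log2 scale. Chance flags about 1 in 20 such groups. How these values arose was not tested.

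Cortex library 1 was flagged in 8 genes. It was the highest of cortex for Arg2 (5.47 TPM, others 2.84 to 3.46), Cldn3 (12.4 TPM, others 6.81 to 7.73), P2ry2 (2.53 TPM, others 1.28 to 1.56) and Slc6a18 (471.9 TPM, others 319 to 347). It was the lowest of cortex for Esrra (133 TPM, others 175 to 181), Hk1 (29.8 TPM, others 39.0 to 41.1), Slc22a6 (593 TPM, others 681 to 691) and Wnk1 (60.3 TPM, others 76.1 to 82.1). The other cortex flags were Hk2 in library 2 (1.79 TPM, others 0.251 to 0.49) and Slc14a2 in library 3 (0.422 TPM, others 0.0195 to 0.107).

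OM library 1 was flagged in 5 genes. It was the lowest of OM for Cldn2 (291 TPM, others 337 to 350.1) and Pth1r (333 TPM, others 392 to 415), and the highest for Edn3 (10.03 TPM, others 6.53 to 7.14), Gstm2 (187 TPM, others 107 to 116) and Kcnt1 (35.8 TPM, others 22.1 to 24.2). Library 5 was the lowest of OM for Klk1 (1305 TPM, others 2102 to 2507) and Pgam2 (46.1 TPM, others 77.4 to 86.3), and the highest for Crot (626 TPM, others 467 to 508) and Slc22a13 (240 TPM, others 176 to 182). Library 2 was the lowest for Cldn10 (249.6 TPM, others 283 to 291).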

How the results depend on the processing

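On the TPM scale 4267 genes were higher and 949 lower, and 495 and 72 by at least 2-fold. Median-ratio scaling gave 2445 higher, 2675 lower and 147 at least 2-fold lower. Quantile normalization gave 1846, 2218 and 124, and voom on the recovered reads 2352, 2441 and 206, with 777 at least 2-fold higher. A pseudocount of 0.1 gave 940 at least 2-fold higher and 123 lower. Leaving out 1 library gave 3658 to 4428 higher, 784 to 936 lower, 461 to 523 at least 2-fold higher and 52 to 94 lower. The 10 cortex and OM libraries alone gave 4889 higher and 1148 lower, with Bcat2, Pth1r, Slc3a1 and Slc7a13 gaining a call and 17 list counts moved by over 1.5 times. On both scales, without cortex library 1 and OM library 1 together (added after seeing the data), 2315 genes rose and 902 fell, against 2437 and 949. Of the 140 genes named, 129 were called, 128 in every fit that left out 1 library and 124 with the same sign in every setting tried but the filter at 5 TPM. Gpx3, the most abundant gene of the lists, went to 0.00 under quantile normalization, which cannot show a difference in a gene that keeps its rank. Ldha reversed after scaling (-0.059) and in voom (-0.0534), and Hnf4g after scaling (-0.10), under quantile normalization (-0.20), in voom (-0.12) and without OM library 2 (-0.0234) or 5 (-0.018), and neither was called in any setting. Leaving out 1 library, the ratio differences ran from 1.64 to 1.84 for Slc5a1/Slc5a2, 1.63 to 1.85 for Slc2a1/Slc2a2, 3.39 to 3.67 for Slc12a1/Slc12a3, 1.79 to 2.01 for Slc6a18/Slc6a19, 2.38 to 2.85 for Slc22a7/Slc22a6, 3.16 to 3.99 for Bcat1/Bcat2, 0.45 to 0.53 for Ldha/Ldhb, 1.28 to 1.57 for Hk1/Hk2, 1.51 to 1.57 for Esrrb/Esrra and 0.12 to 0.28 for Hnf4g/Hnf4a, which passed without OM library 3 (0.28, exact test, adjusted p = 0.0476). The causes of these changes were not tested.

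With a replicate block, 4468 genes were higher and 1056 lower, 496 and 74 by at least 2-fold, Esrra and Slc7a13 gained a call, and 9 list counts moved by over 1.5 times. The exact tests on ratios used no pairing. Libraries of cortex and OM with the same number correlated at 0.075 to 0.262 in their deviations from the zone means, and those with different numbers at -0.182 to 0.139. For 8 of 10 libraries the best match was their own number, a hint from the data that was not taken as a pairing.

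Since 1 TPM stood for 25.7 to 32.8 reads, values of genes near or below that level carry more counting error than those of abundant genes, and no detection limit was computed.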
